A study of Mus musculus with 2 samples.

Results

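Accessible chromatin at 10 keratin genes was examined in single-cell ATAC-seq data from embryonic mouse back skin. They comprised the basal genes Krt5, Krt14 and Krt15, the suprabasal genes Krt1, Krt10, Krt2 and Krt77, and the simple epithelial genes Krt8, Krt18 and Krt19. A region belonged to a gene if it overlapped a called peak and lay within 500 bp of its transcription start site, inside the gene body or within 10 kb of the gene in mm10, and a region near several of the genes was assigned to 1 of them. This gave 91 of the 369634 merged regions of both peak lists. The libraries, 1 per genotype, were made from E16.5 back skin of a Control and of a MOF cKO (MOFfl/fl/K14Cre), in which the Krt14 promoter drives Cre and deletes the histone acetyltransferase MOF (Kat8) from Krt14-expressing epithelium. Both libraries also carried the K14-H2BGFP reporter, by which GFP-positive and GFP-negative cells were sorted and then recombined. The labels give the ratio as 5:1 while the study's text gives other ratios, so the shares of cell classes are set by a mixture that is not settled here. The labels give the control only as Control, the study used wildtype or heterozygous littermates on a mixed C57Bl/6J and CD-1 background, and each library came from 1 sample of a single Control and MOF cKO pair, without a statement in the sources used here of whether a sample was a single embryo. With 1 library per genotype no difference can be tested, and all intervals below are 95% intervals of counting error only.

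Keratins are the intermediate filament proteins of epithelia and assemble as obligate pairs of a type I and a type II protein. Krt5 pairs with Krt14 in the dividing basal layer, Krt1 with Krt10 in the layers above it, and Krt8 with Krt18 in simple epithelia and in the single-layered embryonic ectoderm before stratification. The type I genes Krt10, Krt14, Krt15 and Krt19 are clustered on chromosome 11, whereas the type II genes Krt1, Krt2, Krt5, Krt8 and Krt77 lie together on chromosome 15, with the type I gene Krt18 beside Krt8. ATAC-seq counts the places where the Tn5 transposase cuts open DNA, so each value below is a measure of how open a promoter or flanking region was, not of RNA or protein.

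The values were counts of cut sites, summed over the cells of a class and given as CPM, cut sites per 1000000 cut sites in the regions shared by both peak lists. Of the Control barcodes 60 had under 1000 sites and were dropped, which left 2481 cells beside 4348 in MOF cKO, with medians of 62973 and 66239.5 sites per barcode over all deposited barcodes. In all, 21 barcode sequences occurred in both libraries. Cells were classed from marker genes that included no keratin, and regions within 100 kb of the 10 genes were kept out of the clustering. Epithelial-like cells numbered 1601 (64.5%) in Control and 2630 (60.5%) in MOF cKO, fibroblast-like cells 668 and 1265, and immune-like cells 46 and 278. Different clusters held most epithelial-like cells of each library, with clusters 1, 7 and 8 mostly from Control and clusters 0, 2, 6 and 13 almost only from MOF cKO, so what differs by genotype, by library and by cell state cannot be told apart. In epithelial-like cells the Kat8 promoter read 49.9 CPM (Control) and 36.7 CPM (MOF cKO), a log2 change of -0.04 (-0.11 to 0.03) relative to the median promoter. A promoter count does not read the floxed part of the gene and therefore does not check the deletion.

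The sequences below are those on which the results turn, all in GRCm38 (mm10), read 5' to 3' on the strand of the gene, with matches to short motifs in capitals. The motifs searched on both strands were TGANTCA for AP-1, TATAAA for the TATA box, GGGCGG for SP factors, CACCCN for KLF factors, AACNGGTT for GRHL factors and the p53-family site, and matches of different motifs may share bases. The Krt14 stretch is the 250 bases upstream of the annotated gene 5' end (chr11:100207549-100207798, minus strand), inside the promoter peak that was more open in MOF cKO. The Krt5 stretch (chr15:101712906-101713155, minus strand) belongs to the partner gene, whose promoter was less open. The Krt10 stretch (chr11:99389365-99389614, minus strand) lies before the gene 5' end of the main suprabasal type I keratin. Krt5 and Krt10 sequences are from the RefSeq promoter table of this build and the Krt14 sequence is from the genome, because the table's Krt14 entry starts 1518 bp inside the gene.
Krt14 promoter: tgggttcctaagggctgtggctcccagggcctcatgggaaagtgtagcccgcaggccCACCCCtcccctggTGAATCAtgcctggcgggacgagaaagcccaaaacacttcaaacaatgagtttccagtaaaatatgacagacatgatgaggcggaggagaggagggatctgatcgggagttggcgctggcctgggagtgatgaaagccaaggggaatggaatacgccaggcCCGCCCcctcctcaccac
Krt5 promoter: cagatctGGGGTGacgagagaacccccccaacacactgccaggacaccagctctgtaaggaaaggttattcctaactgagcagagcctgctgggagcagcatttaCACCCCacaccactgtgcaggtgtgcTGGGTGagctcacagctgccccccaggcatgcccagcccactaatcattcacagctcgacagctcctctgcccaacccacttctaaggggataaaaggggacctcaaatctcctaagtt
Krt10 promoter: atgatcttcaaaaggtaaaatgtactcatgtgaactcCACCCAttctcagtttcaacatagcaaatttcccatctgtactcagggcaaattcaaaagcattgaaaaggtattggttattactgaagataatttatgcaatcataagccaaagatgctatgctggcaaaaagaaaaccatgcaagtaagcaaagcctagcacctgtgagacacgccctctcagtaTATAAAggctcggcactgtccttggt

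From outside the promoters, 3 flanking regions are shown by their central 300 bases. The stretch downstream of Krt10 (chr11:99383728-99384027, minus strand) had the largest gain in epithelial-like cells among the regions of the 10 genes outside promoters with at least 200 sites (0.9 when thinned to equal depth), the stretch downstream of Krt1 (chr15:101843180-101843479, minus strand) had the largest loss in these cells, and the stretch upstream of Krt8 (chr15:102005539-102005838, minus strand) was the most open of them in Control.
Krt10 downstream region: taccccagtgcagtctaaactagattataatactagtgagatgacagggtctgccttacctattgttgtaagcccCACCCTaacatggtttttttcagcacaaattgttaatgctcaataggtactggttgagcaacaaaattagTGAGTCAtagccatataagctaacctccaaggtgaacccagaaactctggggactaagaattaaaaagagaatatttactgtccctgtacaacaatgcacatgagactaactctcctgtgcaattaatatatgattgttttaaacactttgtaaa
Krt1 downstream region: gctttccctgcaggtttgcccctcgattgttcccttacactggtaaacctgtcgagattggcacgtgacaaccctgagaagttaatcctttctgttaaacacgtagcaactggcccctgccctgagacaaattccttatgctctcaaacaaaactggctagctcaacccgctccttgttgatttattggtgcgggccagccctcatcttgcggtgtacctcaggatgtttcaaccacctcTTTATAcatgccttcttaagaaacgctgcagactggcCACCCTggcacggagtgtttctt
Krt8 upstream region: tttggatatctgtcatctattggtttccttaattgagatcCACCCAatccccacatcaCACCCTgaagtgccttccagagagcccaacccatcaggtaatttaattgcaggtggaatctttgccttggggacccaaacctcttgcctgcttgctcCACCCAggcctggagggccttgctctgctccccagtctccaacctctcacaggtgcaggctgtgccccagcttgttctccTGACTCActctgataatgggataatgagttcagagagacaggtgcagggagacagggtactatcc

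The Krt14 stretch held 1 AP-1, 1 SP and 1 KLF match, and the Krt5 stretch held 3 KLF matches. In the Krt10 stretch 1 TATA box and 1 KLF match were found. Of all promoters in the RefSeq table, 7.1% held the AP-1 motif, 12.9% the TATA box, 48.0% SP and 58.9% KLF, whereas 1.97% held GRHL and 1.39% the p53-family site, over 300 bases each. The table listed 7 of the 10 genes, without Krt15, Krt1 and Krt19. In the central 300 bases of the 52 linked regions defined below, AP-1 matches were found in 21.2%, against 22.3% of the other shared regions that were not promoters, and KLF matches in 67.3% against 51.1%. These matches are a description of letters and say nothing about binding.

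In Control, all 3 basal keratin promoters were far more open in epithelial-like than in fibroblast-like cells, and the few immune-like cells also read lower. In Control epithelial-like cells Krt14 read 39.8 CPM (38.0 to 41.6), Krt5 30.2 (28.7 to 31.8) and Krt15 27.2 (25.8 to 28.7). In Control fibroblast-like cells the same promoters read 1.12, 0.846 and 0.498 CPM, which put the epithelial-like level 35.5-fold (23.5 to 56.4) higher for Krt14, 35.7-fold (22.2 to 61.5) for Krt5 and 54.6-fold (29.6 to 114) for Krt15. The 46 Control immune-like cells had 0 sites at Krt5 and Krt15, which allows up to 3.86 CPM. At Krt14 they had 4 sites, which allows up to 7.55 CPM. Among cells left unnamed, cluster 12 (94 Control cells, median doublet score 0.88) read 25.8 CPM at Krt14, 20.5 at Krt5 and 15.2 at Krt15, and the 20 MOF cKO cells of cluster 16 read 11.3 CPM (3.67 to 26.4) at Krt14. The basal keratins, which had no part in naming the cells, were thus open in the class named from epithelial markers.

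Suprabasal and simple keratin promoters were less open than the basal ones in Control epithelial-like cells. In Control, Krt1 read 3.79 CPM in the epithelial-like and 0.249 CPM in the fibroblast-like class, 15.2-fold (6.4 to 47.4) apart, and Krt77, a type II keratin related to Krt1, read 1.77 and 0.0747, 23.7-fold (5.39 to 334) apart on 3 fibroblast-like sites. Both intervals overlapped those of Krt14 and Krt5. Krt8 and Krt18 were 5.63-fold (3.24 to 10.6) and 6.88-fold (5.11 to 9.48) more open in epithelial-like cells, and Krt19 was 1.69-fold (1.25 to 2.32) more open. Krt10 went the other way over its promoter regions together, with 29.8 CPM in fibroblast-like and 21.8 CPM in epithelial-like cells. Of the fibroblast-like sites 99.2% lay in a region inside the gene. The region at its 5' end read 0.224 CPM in fibroblast-like and 4.28 CPM in epithelial-like cells. No region within 500 bp of a Krt2 start was shared by both peak lists, so Krt2, the type II keratin of late suprabasal cells, has no promoter value.

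**Figure D1:**
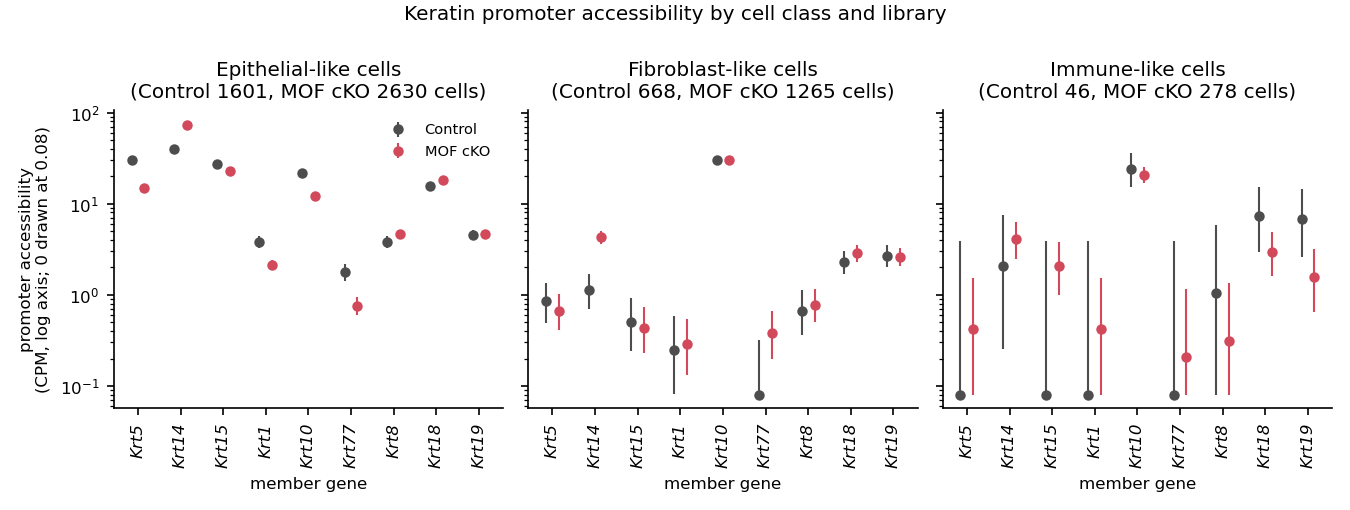
Promoter accessibility of 9 keratin genes in CPM on a log axis, by cell class, with Control in grey and MOF cKO in red. Bars are exact 95% Poisson intervals on fragments, and values of 0 are drawn at the axis floor. The 3 basal promoters stand at 14.8 CPM or more in epithelial-like cells and at 4.27 CPM or less in the other classes plotted, whereas Krt10 is at 12.1 CPM or more in every class.

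The order of the promoters differed between libraries when levels were given per kb of promoter region. In Control epithelial-like cells Krt14 was first with 44.8 CPM per kb, followed by Krt5 (37.2) and Krt15 (25.3), and then by Krt10 (10.3) and Krt18 (9.07), whose intervals overlapped. Krt8 (5.12) and Krt1 (4.08) overlapped next, and Krt19 (2.45) and Krt77 (1.93) overlapped at the bottom. In MOF cKO, Krt14 was first with 82.7 CPM per kb, Krt15 (21.4) stood above Krt5 (18.3), and Krt18 (10.5) above Krt8 (6.34) and Krt10 (5.72), which overlapped. Krt19 (2.51) and Krt1 (2.3) also overlapped there, and Krt77 was last with 0.821. Krt5 and Krt10 stood lower in the order in MOF cKO than in Control. The place of Krt10 rests mostly on its internal region, which held 80.4% of its sites in Control and 84.0% in MOF cKO. Its 5' region of 1162 bp alone read 4.28 CPM in Control and 1.94 CPM in MOF cKO, before division by width.

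In epithelial-like cells, MOF cKO and Control were compared as log2(MOF cKO / Control) relative to the median of all promoters of the class, since the median promoter itself had shifted by -0.405 in CPM. Krt14 was 1.29 (1.22 to 1.36) higher than the median promoter, from 39.8 CPM in Control to 73.4 CPM (71.8 to 75.1) in MOF cKO, with 3950 and 15080 sites. Among all promoters this level moved from percentile 77.0 to percentile 99.1, and the change was at percentile 97.0. Krt5, its type II partner, went from 30.2 CPM to 14.8 (14.1 to 15.6), a relative change of -0.62 (-0.72 to -0.52) at percentile 2.03. Krt15, a type I keratin of basal and hair follicle stem cells, went from 27.2 to 23.0 CPM, a relative change of 0.16 (0.07 to 0.26). The basal group thus had no common direction, and its median of 0.16 turned to -0.24 when changes were not centred on the median promoter.

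All 3 suprabasal promoters with a value were lower in MOF cKO. Krt1 went from 3.79 to 2.13 CPM, a relative change of -0.42 (-0.71 to -0.13). Its partner Krt10 went from 21.8 to 12.1 CPM, a relative change of -0.44 (-0.56 to -0.32), and Krt77 from 1.77 to 0.755 CPM, a relative change of -0.83 (-1.29 to -0.37). The group median was -0.44, and it was lower still, at -0.84, without centring.

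The simple keratin promoters were all higher relative to the median promoter. Krt8 went from 3.79 to 4.69 CPM (0.71, 0.47 to 0.97) and Krt18 from 15.8 to 18.2 CPM (0.61, 0.49 to 0.74). Krt19, the smallest type I keratin, went from 4.55 to 4.67 CPM (0.44, 0.21 to 0.68). Its promoter regions differed, at 1.07 (0.62 to 1.55) and 0.18 (-0.09 to 0.46). The group median of 0.61 fell to 0.21 without centring, and Krt19 then stood between -0.11 and 0.04 by the total used.

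Of the 9 promoters with a value, 1 (Krt14) was at least 2-fold higher and 0 were at least 2-fold lower relative to the median promoter. Over all 15862 promoters tested, 4.85% were 2-fold higher and 0.517% 2-fold lower. Without centring the split turned to 0 higher and 2 lower (Krt5 and Krt77), beside 2.48% and 2.25% of all promoters, and Krt14 read 0.88 on that scale. The direction of Krt14, Krt5 and the suprabasal genes was the same under every setting tried, whereas Krt15 was -0.39 to 0.22.

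**Figure D2:**
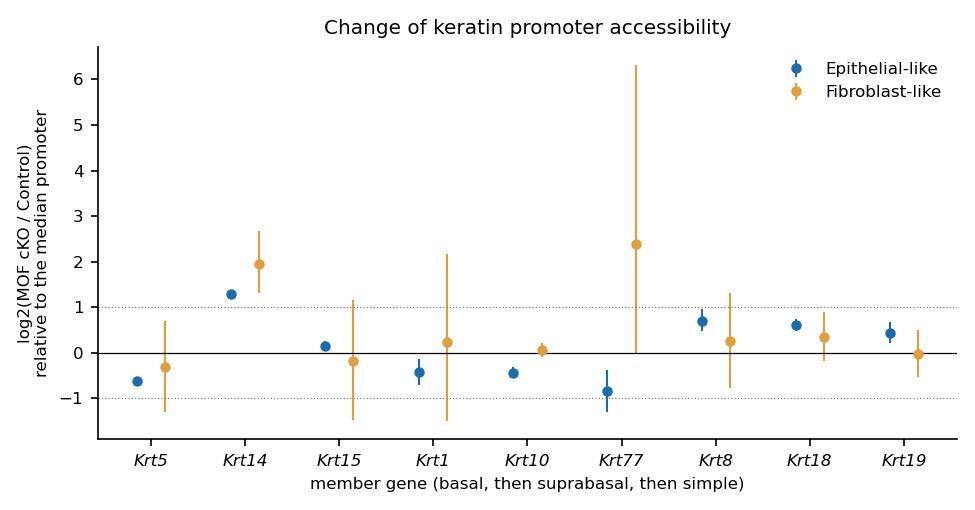
Change of promoter accessibility as log2(MOF cKO / Control) relative to the median promoter of the class, for 9 keratin genes in epithelial-like (blue) and fibroblast-like (orange) cells. Bars are exact 95% conditional binomial intervals on fragments and dotted lines mark 2-fold. Krt14 is the 1 gene past 2-fold in epithelial-like cells, at 1.29, and is at 1.96 in fibroblast-like cells.

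Along the Krt14 locus, the regions of the gene moved differently, and the largest rise in CPM was at the promoter peak. This peak spans chr11:100207161-100208048 and covers the annotated gene 5' end and first exon. The adjacent region 1262 bp upstream, equally open in Control, had 39.0 and 40.2 CPM and thus differed by 0.02 (-0.06 to 0.1) relative to the median of the shared regions that were not promoters, which serves as the reference for all regions outside promoters. Within the gene, 1655 bp downstream of the 5' end over coding exons, accessibility went from 22.1 to 7.56 CPM, a change of -1.57 (-1.7 to -1.44). Another region in the gene 3908 bp from the 5' end went from 7.4 to 3.81 CPM (-0.98).

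Beyond the 3' end the changes were mixed. The region 7193 bp from the 5' end went from 22.8 to 16.2 CPM (-0.52), and the region 8713 bp from it from 3.87 to 8.55 CPM (1.12, 0.9 to 1.36). Without centring the latter changed by 1.15 (0.92 to 1.38) and the promoter by 0.88 (0.81 to 0.96), with overlapping intervals. A gene-body region read 4.98 CPM and a flanking region 6.54 CPM in Control, and neither was called in the MOF cKO peak list. Upstream of the gene, 2 flanking regions were called in MOF cKO only, at 0.837 and 0.633 CPM. Of all merged regions 8.92% were called in Control only and 33.2% in MOF cKO only. The copies of the gene itself cannot be told apart in these counts from any mouse Krt14 promoter sequence carried by the transgenes, of which Cre is part of the MOF cKO genotype.

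**Figure D3:**
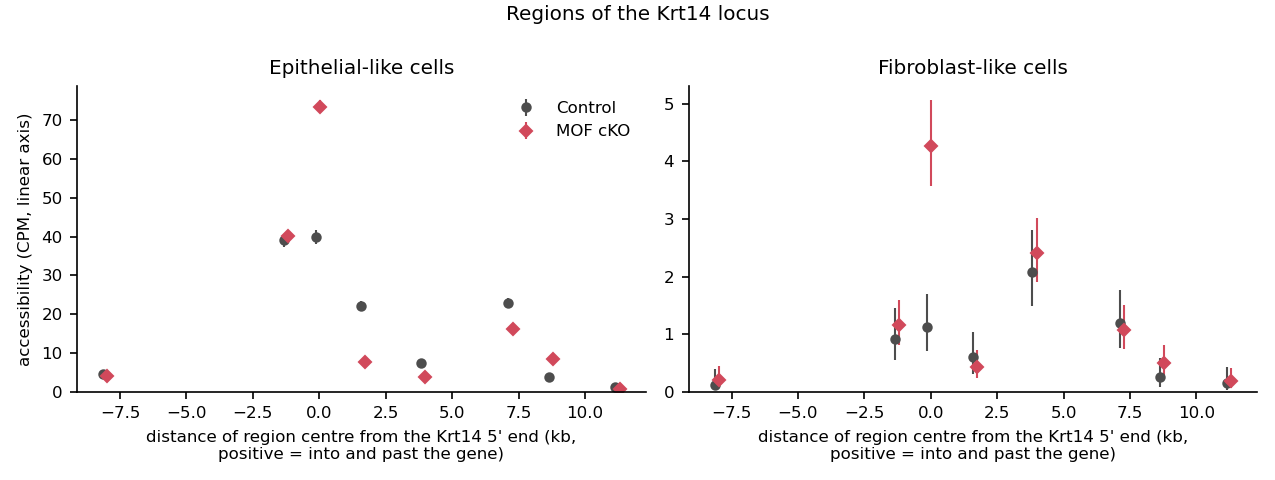
Accessibility in CPM (linear axis) of the regions of the Krt14 locus shared by both peak lists, by distance of the region centre from the gene 5' end in kb, in epithelial-like and fibroblast-like cells (Control grey circles, MOF cKO red diamonds). Bars are exact 95% Poisson intervals on fragments. The promoter region near 0 separates upward in MOF cKO in both classes, from 39.8 to 73.4 CPM and from 1.12 to 4.27 CPM.

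Fibroblast-like cells of the MOF cKO library also had a higher level at the Krt14 promoter than those of Control. The libraries also divided by cluster here, with 6 Control and 624 MOF cKO cells in cluster 3, 96 and 501 in cluster 4, 472 and 90 in cluster 5 and 94 and 50 in cluster 10, so genotype, library and cell state cannot be told apart. It had 45 sites in Control and 268 in MOF cKO, or 1.12 CPM (0.706 to 1.69) and 4.27 CPM (3.58 to 5.06), a relative change of 1.96 (1.31 to 2.67) at percentile 99.5 of all promoters. Krt5 was at 0.846 and 0.669 CPM (-0.31, -1.3 to 0.7) and Krt15 at 0.498 and 0.43 CPM (-0.18, -1.47 to 1.16), so neither was measurably higher. The epithelial-like level in MOF cKO was 17.2-fold (14.5 to 20.6) higher than the fibroblast-like one for Krt14 and 22.2-fold (14.5 to 36.0) for Krt5, with overlapping intervals, and 53.5-fold (31.5 to 99.3) for Krt15, above the interval of Krt14. A Krt14 site was found in 8.06% of MOF cKO and 2.84% of Control fibroblast-like cells, at median depths of 52659 and 64267.5 sites, and in 3.96% of MOF cKO immune-like cells at 42374.5 sites. The part of DNA from epithelial cells in these values was not tested. All 12 epithelial markers had sites in fibroblast-like cells of both libraries, and their summed level was 56.7 CPM (53.5 to 60.1) in Control and 55.9 CPM (53.3 to 58.6) in MOF cKO. The members went both ways, with intervals above 0 for 3 (Lad1 0.87, Esrp1 0.74 and Perp 0.72) and below 0 for 2 (Trp63 -0.92 and Epcam -0.64). The 10 fibroblast markers summed to 381 and 343 CPM.

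Without the 10% of cells of highest doublet score, Krt14 in fibroblast-like cells read 0.814 CPM in Control and 3.28 CPM in MOF cKO, a relative change of 2.04 (1.26 to 2.92), and Krt5 0.604 and 0.333 CPM. Krt15 then read 0.289 and 0.0351 CPM, on 11 and 2 sites against 20 and 27 before, so the Krt15 level of MOF cKO fibroblast-like cells rested on the cells of highest doublet score. By cluster, Krt14 went from 1.12 to 5.06 CPM in cluster 4 (7 and 138 sites) and from 0.916 to 6.81 CPM in cluster 5 (30 and 40 sites). Cluster 10 went the other way, from 8.29 to 3.09 CPM, on 8 and 2 sites. In cluster 5 Krt5 also differed, at 0.824 and 2.89 CPM, and the epithelial markers summed to 56.9 and 68.4 CPM. Cluster 3 read 3.04 CPM in MOF cKO. Immune-like cells had 4 sites in Control and 39 in MOF cKO, 2.09 and 4.08 CPM, with an interval of the relative change from -1.07 to 4.12. The 5 linked regions of Krt14 with a value in fibroblast-like cells, those in the gene body or within 10 kb that were no promoter, ranged from -0.51 to 0.95.

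Of the 9 promoters, 2 were at least 2-fold higher in fibroblast-like cells, Krt14 and Krt77, and 0 were lower, beside 1.97% higher and 0.762% lower of all 15754 promoters. Krt77 rested on 3 and 24 sites, and its interval reached from -0.01 to 6.32. The simple keratins were at 0.672 and 0.781 CPM for Krt8, 2.29 and 2.87 CPM for Krt18 and 2.69 and 2.6 CPM for Krt19.

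Krt10 was read in 2 promoter regions that differed in cell class. The gene 5' region (chr11:99388645-99389806, over the first exon) read 4.28 CPM in Control epithelial-like cells and 0.224 in fibroblast-like cells. The internal region (chr11:99385830-99386786) lies over an exon 3056 bp from the 5' end, where a shorter coding transcript is annotated to start, and read 17.5 CPM in epithelial-like, 29.6 in fibroblast-like and 24.0 in immune-like Control cells. It held 80.4% of the Krt10 promoter sites in Control epithelial-like cells, 84.0% in MOF cKO, and 99.2% and 99.5% in fibroblast-like cells. In MOF cKO epithelial-like cells the 5' region read 1.94 CPM (-0.74, -1.02 to -0.45) and the internal region 10.2 CPM (-0.38, -0.51 to -0.24), both relative to the median promoter.

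A similar caution holds for Krt19, whose promoter regions lay 2371 and 3456 bp inside the longest annotated transcript. The first went from 1.06 to 1.68 CPM in epithelial-like cells and the second from 3.49 to 2.99 CPM. Relative to the median promoter these changes were 1.07 (0.62 to 1.55) and 0.18 (-0.09 to 0.46). The second, more open region thus had an interval that covered 0. Krt18 was read in a region at its 5' end, 6.19 and 7.74 CPM, and in a region 945 bp into the gene, 9.56 and 10.5 CPM. Both Krt18 regions were higher relative to the median promoter, at 0.73 (0.54 to 0.92) and 0.54 (0.38 to 0.7).

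Outside promoters, the regions in the gene bodies and within 10 kb that were not a promoter of any gene, called linked regions here, were lower on balance in MOF cKO epithelial-like cells. Of the 52 with a value, 11 (21.2%) were at least 2-fold lower and 6 (11.5%) at least 2-fold higher, with a median change of -0.49. With each cell thinned to 5000 sites, 12 of 45 were lower and 3 higher, beside 13.6% and 24.2% of all shared regions that were not promoters. Unthinned, over all 195124 such regions, 9.6% were 2-fold lower and 19.8% 2-fold higher. By group the medians were -0.54 for 18 basal, -0.43 for 19 suprabasal and -0.48 for 15 simple regions. The simple keratins had 5 regions lower and 0 higher, while all 3 simple promoters were higher relative to the median promoter, a different reference. The 47 regions with a value in fibroblast-like cells had a median of -0.03, with 4 higher and 2 lower (8.51% and 4.26%), beside 10.9% and 8.28% of all 182202 regions.

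**Figure D4:**
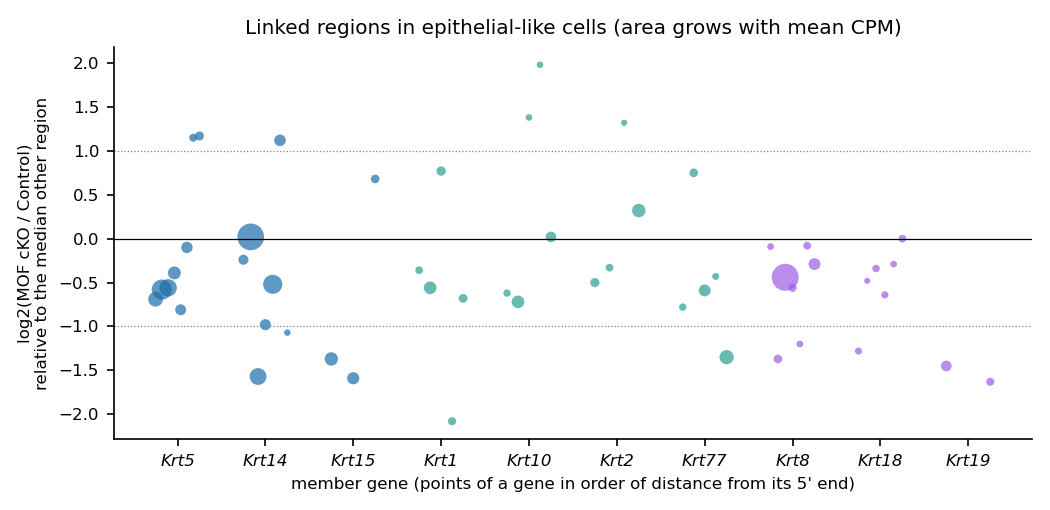
Change of each linked region in epithelial-like cells as log2(MOF cKO / Control) relative to the median region that was not a promoter, by gene, with points of a gene in order of distance from its 5' end and area growing with mean CPM. Dotted lines mark 2-fold. Most of the 52 points lie below 0, and their median is -0.49.

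The regions that lost most access lay downstream of Krt1, Krt19 and Krt15. The Krt1 region (chr15:101842831-101843827, 7465 bp from the 5' end) went from 3.78 to 0.906 CPM, a change of -2.08 (-2.46 to -1.72), or -3.31 with each cell thinned to 5000 sites. The Krt19 region (chr11:100138929-100139937, between Krt15 and Krt19) went from 3.35 to 1.1 CPM (-1.63) and the Krt15 region (chr11:100127575-100128617) from 10.5 to 3.55 CPM (-1.59, -1.78 to -1.39). All 3 were below 1 CPM in fibroblast-like cells of either library.

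Linked regions were ranked by the ratio of the libraries, with a minimum of sites in both together, which favours a low Control level in gains. The regions with the largest gains were weakly open in Control, which is therefore no separate finding. Those downstream of Krt10, at chr11:99383515-99384240 and chr11:99384253-99384896, went from 0.413 to 1.65 CPM (1.98, 1.31 to 2.72) and from 0.544 to 1.44 CPM (1.38, 0.79 to 2.03). With each cell thinned to 5000 sites the first of these fell to 0.9 and the second to 0.96, both under 2-fold. The third lay over the last part of Krt2, including its untranslated end (chr15:101810945-101811767), and went from 0.423 to 1.07 CPM (1.32, 0.64 to 2.07), or 1.47 when thinned, the highest of the 3 at equal depth. Downstream of Krt5, the regions 15209 and 12528 bp from its 5' end went from 1.88 to 4.29 CPM (1.17) and from 1.36 to 3.06 CPM (1.15).

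The strongest linked region of each gene was in most cases lower in MOF cKO. For Krt8 it lay 1206 bp upstream (chr15:102005236-102006141), was the most open of all 52 in Control and went from 46.4 to 34.6 CPM (-0.44, -0.52 to -0.37), below the 40.2 CPM of the region upstream of Krt14 in MOF cKO, while the Krt8 promoter itself stood at 3.79 and 4.69 CPM. For Krt5 it lay 3148 bp upstream and went from 26.0 to 17.6 CPM (-0.58). Without centring this was -0.56, against -1.03 for the Krt5 promoter. For Krt15 it lay 2058 bp upstream and went from 12.6 to 4.93 CPM (-1.37). For Krt77 it lay 13999 bp from the 5' end, past the gene, and went from 14.6 to 5.79 CPM (-1.35). This region lies between Krt77 and Krt1, upstream of Krt1 and nearer to the 5' end of Krt1 than to that of Krt77. For Krt19 the strongest region lay 7084 bp upstream and went from 7.42 to 2.76 CPM (-1.45).

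The strongest Krt10 region, 1850 bp upstream, went from 9.56 to 5.88 CPM in epithelial-like cells (-0.72, -0.9 to -0.55) and from 4.33 to 0.717 CPM in fibroblast-like cells (-2.64, -3.37 to -1.95), on 174 and 45 sites. Of those Control sites 168 were in cluster 5, which read 5.13 CPM in Control and 0.851 CPM in MOF cKO (5 sites), whereas the 96 Control cells of cluster 4 had 0 sites and its MOF cKO cells 0.55 CPM. The strongest Krt1 region covered its last exon and read 9.25 and 6.35 CPM in epithelial-like and 10.5 and 9.62 CPM in fibroblast-like cells, so it was open in both classes. For Krt14, Krt18 and Krt2 the changes of the strongest region were 0.02, 0.0 and 0.32, with 7.81 and 9.91 CPM for Krt2. Near Krt8, the region 6435 bp upstream was open in fibroblast-like cells, at 31.8 and 32.4 CPM, and at 1.26 and 1.2 CPM in epithelial-like cells.

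Peak calls differed between the libraries. Of the 91 regions, 65 (71.4%) were called in both lists, 7 (7.69%) in Control only and 19 (20.9%) in MOF cKO only. Over all merged regions of the series these shares were 57.9%, 8.92% and 33.2%. A region called in 1 list has no value in the other library and enters no comparison. The most open of those called in MOF cKO only lay 2532 bp upstream of Krt19 and read 5.72 CPM in epithelial-like cells.

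Within the epithelial-like cells of at least 5000 sites, each library was divided into sub-clusters, 5 in Control (C1 to C5) and 4 in MOF cKO (K1 to K4), none of which could be named from the marker lists. Krt1 read 9.62 CPM (7.75 to 11.8) in C5 and between 1.66 and 3.03 CPM in the other Control sub-clusters, and the Krt10 5' region 9.73 CPM (7.84 to 11.9) in C5 and 2.05 to 3.98 CPM elsewhere. C5 was led by Sdr16c6, Tmprss4, Adgrf4 and Sdr16c5, and Krtdap, a suprabasal marker, was also among its leading genes. Krtdap was the only 1 of 15 measured suprabasal markers that was 2-fold higher in C5. The median doublet score of C5, 0.41, was the highest of the Control sub-clusters. The internal Krt10 region did not follow, at 13.6 to 21.6 CPM. In MOF cKO the Krt10 5' region was highest in K3, at 4.31 CPM (3.53 to 5.22) against 1.01 and 1.45 CPM in K1 and K2. Krt1 read 3.21 CPM in K3 (2.54 to 4.0) against 1.21 and 2.69 CPM. Its interval in K3 overlapped those in K2 (2.1 to 3.38) and K4 (1.25 to 4.13). Sdr16c6 and Tmprss4 were also among the leading genes of K3.

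K4 (190 cells) had the fibroblast marker Twist1 among its 10 leading genes. No epithelial marker was among them, which also held for K1 to K3. Its fibroblast markers summed to 135 CPM (125 to 146), against 71.7 to 94.6 CPM in the other MOF cKO sub-clusters. In the Control sub-clusters, all of which were kept, this sum was 87.8 to 116 CPM. The epithelial markers of K4 summed to 242 CPM, against 279 to 311 CPM in the other MOF cKO sub-clusters. K4 is kept out of the comparison below, and its levels were 64.2 CPM for Krt14 and 9.84 CPM for Krt5. Over the whole class without K4, the changes were 1.32 for Krt14 and -0.58 for Krt5.

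Krt14 was above its Control range in K1 to K3, at 89.9 CPM in K1, 69.9 in K2 and 48.3 in K3, against 29.9 to 46.7 CPM in Control. The interval of K3 (45.6 to 51.1) overlapped that of C1 (42.7 to 50.9). Krt5 was 13.4 to 18.0 CPM in K1 to K3, below the lowest Control sub-cluster at 23.6 CPM. Krt8 ranged from 1.42 CPM in C1 to 6.9 CPM in C4, which was also the highest Control sub-cluster for Krt19 (7.37 CPM). In K1 to K3 Krt8 read 3.52 to 5.97 CPM and Krt19 3.95 to 5.25 CPM, inside their Control ranges. Krt18 read 12.9 to 20.4 CPM there, against 11.7 to 19.4 CPM in Control. All levels in this paragraph are CPM without centring, a scale on which the median promoter of the whole class had shifted by -0.405 in MOF cKO. They therefore do not give changes relative to the median promoter. Sub-clusters of 1 library are parts of the same sample and not replicates.

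**Figure D5:**
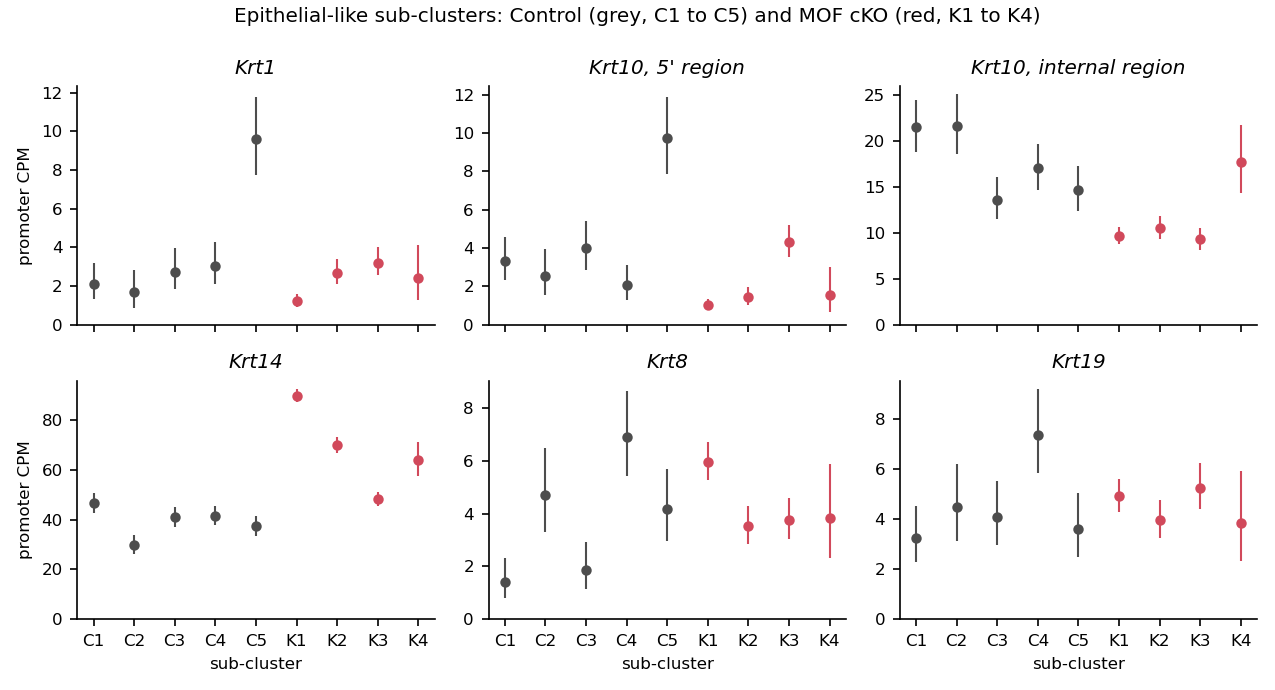
Promoter accessibility in CPM (linear axes) in sub-clusters of epithelial-like cells for Krt1, both Krt10 regions, Krt14, Krt8 and Krt19, with Control sub-clusters in grey and MOF cKO sub-clusters in red. Bars are exact 95% Poisson intervals on fragments. Krt1 and the Krt10 5' region peak together in C5 at 9.62 and 9.73 CPM, and Krt14 is at 48.3 CPM or more in K1 to K3. K4 is led by genes that include a fibroblast marker.

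The share of epithelial-like cells with at least 1 site in the promoter depended on depth. With each cell thinned to 5000 sites (1341 Control and 2594 MOF cKO cells), sites at Krt14 were found in 16.6% of Control and 23.6% of MOF cKO cells, and at Krt5 in 12.3% and 5.55%. The thinned shares for Krt10 were 10.1% and 5.13%, and for Krt1 1.79% and 0.925%. For Krt19 they were 2.54% (1.76 to 3.53) and 1.93% (1.43 to 2.53), the opposite order to its levels of 4.55 and 4.67 CPM, with overlapping intervals. Thinning was to 5000 sites in all peaks of a library's own list, whereas CPM counts shared regions only. With own peaks as the total and without centring, Krt19 changed by -0.11 and the median promoter by -0.551. The thinned shares of all genes are on this uncentred scale. Unthinned, the shares were 53.6% and 82.1% for Krt14, 50.4% and 40.3% for Krt5, 40.5% and 34.3% for Krt10 and 9.43% and 7.45% for Krt1, at median depths of 61930 and 84403 sites per cell. In immune-like cells the unthinned shares were 2.17% and 3.96% for Krt14, at medians of 43531 and 42374.5 sites, and 30.4% and 27.3% for Krt10, so a Krt10 site does not mark an epithelial cell in these data.

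The remaining keratin genes and the epidermal marker lists were read in the same cells. Of 43 other keratin genes, 12 had a promoter region, 2 were at least 2-fold higher in MOF cKO epithelial-like cells and 0 were lower, beside 4.85% and 0.517% of all promoters. Krt6a, a keratin of hair follicle companion cells and of wounded epidermis, went from 2.79 to 11.1 CPM (2.4, 2.15 to 2.67), and Krt16, found in the same settings, from 13.3 to 41.3 CPM (2.04, 1.92 to 2.16). The lowest was Krt7 (-0.61). The lists below were the marker lists used for naming cells, none of which held a keratin.

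Of 13 basal markers, which include integrins and laminins of the basement membrane zone, 0 were past 2-fold, with a median of -0.08. Of 15 suprabasal markers with a value, 3 were higher and 1 lower, beside 4.85% and 0.517% of all promoters, with a median of 0.01. Those higher were Ivl (1.73), Tgm3 (1.44) and Sbsn (1.35), of which Ivl encodes a precursor of the cornified envelope and Tgm3 a transglutaminase that cross-links it, and the lower one was Abca12 (-1.2), a lipid transporter of granular cells. Of 13 hair follicle markers with a value 0 were past 2-fold, with a median of -0.01. The 12 epithelial markers summed to 409 CPM in Control and 291 CPM in MOF cKO, and the change of that sum was -0.08 relative to the median promoter.

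Promoters were also compared across 18 profiles, each of a cluster within 1 library that had at least 50 cells there. These include the Control cells of cluster 12, with a median doublet score of 0.88. The genes whose promoters were most like the mean basal keratin profile were Cldn8 (Pearson r 0.986), Capsl (0.981) and Dsg3 (0.981). Of these, Cldn8 encodes a tight junction claudin and Dsg3 a desmosomal cadherin. For the suprabasal keratins they were Aldh3b3 (0.861), 2010300C02Rik (0.838) and Eif2d (0.828), and for the simple keratins Map3k21 (0.937), Fermt1 (0.934) and Bpifc (0.932). Among the keratins themselves, r was 0.87 for Krt5 and Krt14, 0.93 for Krt14 and Krt15, 0.939 for Krt5 and Krt15 and 0.756 for Krt8 and Krt18. Krt18 had higher values with Krt14 (0.913) and Krt15 (0.915) than with Krt8. For Krt1 and Krt10 r was -0.602, and for Krt10 and Krt77 -0.398, with most Krt10 sites in its internal region. The mean suprabasal profile thus combined members that did not vary together, and the genes listed for it need not resemble any single one. The profiles of a library share its depth and most separate epithelial from other cells, so these values are descriptions over 14922 candidate genes.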

How the data were processed

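Single-cell ATAC-seq libraries were available for 1 Control and 1 MOF cKO sample of E16.5 back skin. The authors aligned reads with Cell Ranger ATAC to mm10 and deposited, for each library, a peak list and raw counts of Tn5 cut sites per peak and barcode, with peaks and cells called separately and no normalization. Both peak lists were merged, and 214119 of 369634 merged regions held a peak of each library (any overlap). Totals were 169641002 sites in Control and 324310197 in MOF cKO. Because 88.8% and 91.6% of matrix values were even (both ends of a fragment), exact Poisson, conditional binomial and binomial intervals were given for fragments (sites / 2).

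Cells with at least 1000 sites were clustered on 50000 shared autosomal regions, after 193 regions within 100 kb of the 10 genes were left out. After TF-IDF weighting, 29 singular vectors were kept, and Leiden clustering at resolution 1 on 20 neighbours gave 17 clusters. A cluster was named where at least 3 markers of its class were 2-fold higher than in clusters outside that class after 5 CPM had been added to each value. A cluster stayed unnamed where its 10 leading genes held markers of another class and none of its own (cluster 11), or where its median doublet score was over 0.5 (cluster 12), rules set after the clusters were seen. The doublet score is the share of simulated pairs among 50 neighbours, and no other cell was removed for it. The sub-clustering of epithelial-like cells was also chosen after seeing the data.

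A promoter was a shared region within 500 bp of a protein-coding transcript start in GENCODE vM21 (sums where several), and a change was given from 20 sites in the libraries together, called at 2-fold. Named were all 10 genes, the 3 linked regions that gained and the 3 that lost most among those with at least 200 sites, the strongest linked region of each gene, the extremes of the other keratins and the 3 genes most alike in log2(CPM + 1), plus regions at Krt5, Krt8, Krt10, Krt14, Krt18 and Krt19 that were picked after their values were seen. Motif matches were counted in 300-base windows, with at most 3 mismatches for the p53-family site. The genes, marker lists and tests were chosen with earlier results of these data known.

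Software versions were scikit-learn 1.9.0, leidenalg 0.10.2 and igraph 0.11.9 for clustering, scipy 1.17.1 for intervals, and numpy 2.4.6, pandas 2.3.3 and matplotlib 3.10.9 under Python 3.11.15. The change calculation was tested on simulated data.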

Additional observations from a re-analysis of the deposited data

Results flagged for a closer look

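A region in an intron of Krt8, 1334 bp from its 5' end (chr15:102002679-102003617), was lower in MOF cKO epithelial-like cells and higher in MOF cKO fibroblast-like cells, with intervals of counting error that left out 0 in both. In epithelial-like cells it went from 2.89 to 1.99 CPM, a change of -0.56 (-0.88 to -0.24) relative to the median region that was not a promoter. In fibroblast-like cells it went from 2.54 to 3.84 CPM, a change of 0.56 (0.07 to 1.06), with 102 and 241 sites. In immune-like cells it was more open, at 16.7 and 13.0 CPM. The difference between the classes was not tested, since each genotype had 1 library.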

How the results depend on the processing

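No value past 2-fold in the main setting changed sign under any alternative. Values under 2-fold were not held to this rule, and among promoters the basal median, Krt15 (-0.39 to 0.22) and Krt19 (-0.11 to 0.56) did change sign. For promoters the total and the centring moved all values together, since the median promoter of epithelial-like cells had shifted by -0.405 with shared regions as the total and by -0.551 with all own peaks. Without centring, on own peaks and on shared regions, the basal median was -0.39 and -0.24, the suprabasal median -0.99 and -0.84, and the simple median 0.06 and 0.21. Under either total 2 of the 9 epithelial-like promoters were 2-fold lower and 0 higher. Of all promoters 4.1% and 2.25% were lower and 2.04% and 2.48% higher under these totals. Thinning every cell to 5000 sites gave a basal median of -0.17 and a suprabasal median of -0.79. Of the 9 epithelial-like promoters 1 was then 2-fold higher and 1 lower, beside 5.11% and 0.838% of all promoters. Of the 3 fibroblast-like promoters that kept a value 1 was higher and 0 lower, beside 1.52% and 0.743%. Of the 10 fibroblast-like linked regions that did, 0 were past 2-fold, beside 11.8% higher and 7.75% lower of all regions. Thinning left 3 epithelial-like linked regions higher and 12 lower of 45, beside 24.2% and 13.6% of all regions. It also moved single regions, the gain downstream of Krt10 from 1.98 to 0.9 and the loss downstream of Krt1 from -2.08 to -3.31. Counting promoters only at the gene 5' end gave a suprabasal median of -0.72, and counting only the 5' region of Krt10, an alternative chosen after seeing the data, gave -0.74. Without the 10% of cells of highest doublet score 1 of 7 fibroblast-like promoters was 2-fold higher and 0 lower, beside 1.7% and 0.932% of all promoters. Of the values of single promoters, 75 of 99 stayed within their counting interval, and of those of named regions 131 of 144. Leaving out the shallow clusters 8 and 13, or the MOF cKO sub-cluster K4, both also chosen after seeing the data, left every group median within that interval.

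No paired analysis was possible because each genotype had 1 library, and for the same reason there was no replicate to leave out. Depth limits the fibroblast-like and immune-like values at keratin promoters, most of which rest on under 100 sites. Variation between embryos was not measured.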
